A study of Homo sapiens with 16 samples.

Results

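The chromosome 21 windows around TMPRSS2, ERG and ETS2 were examined for binding of the ETS factors ERG and GABPα in a prostate cancer line and a T-cell leukaemia line. The members were the peaks of 10 chromatin immunoprecipitation sequencing (ChIP-seq) samples that start in chr21:41700000-41900000 (TMPRSS2), chr21:38650000-39000000 (ERG) or chr21:39050000-39200000 (ETS2) of the hg18 build. They comprised 66 of the 155269 peaks called by MACS and 14 of the 39138 high confidence peaks, which are those called by both MACS and a second caller, SWEMBL. The TMPRSS2 window of 200 kb held 15 MACS and 7 high confidence peaks, the ERG window of 350 kb held 38 and 3, and the ETS2 window of 150 kb held 13 and 4.

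VCaP cells, a prostate cancer line that carries the TMPRSS2-ERG fusion, gave 1 sample per factor for each of 3 treatments, named t0, vehicle and R1881 (methyltrienolone). Cells of the latter pair were kept in charcoal-stripped serum for 48 h and then given ethanol or 1 nM of R1881, a synthetic androgen; the labels do not define t0. Jurkat cells, a T-cell leukaemia line with no treatment in the labels, gave 2 samples per factor. Each VCaP value therefore rests on 1 sample, and the study's methods call the ChIP replicates biological, while the labels do not say whether the Jurkat samples came from separate cultures. The catalogue number of the ERG antibody in the labels is not the one in the study's methods. The files hold nothing that settles this, so ERG below names the ChIP labelled ERG.

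TMPRSS2 encodes a transmembrane serine protease of prostate epithelium and is switched on by androgen. In the TMPRSS2-ERG fusion its promoter drives ERG, an ETS transcription factor known for its roles in endothelial and blood cells, so that androgen controls ERG levels. ETS2, a related ETS factor that responds to growth factor signalling, lies between these genes on the chromosome. GABPα is the DNA-binding subunit of GABP, an ETS factor best known at promoters of housekeeping genes. ETS factors share a recognition core with the letters GGAA.

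To show what this core looks like at these genes, the 250 bases before an annotated start are printed for ERG and ETS2 from the RefSeq promoter table (build GRCh38.p14), 5′ to 3′ on the strand of the gene, with GGAA on either strand (read as TTCC on the other) in capitals. The first ERG sequence and the ETS2 sequence belong to the outermost start of each gene, and the second ERG sequence to the next start within ERG.
ERG start 1, chr21:38660668-38660917, minus strand: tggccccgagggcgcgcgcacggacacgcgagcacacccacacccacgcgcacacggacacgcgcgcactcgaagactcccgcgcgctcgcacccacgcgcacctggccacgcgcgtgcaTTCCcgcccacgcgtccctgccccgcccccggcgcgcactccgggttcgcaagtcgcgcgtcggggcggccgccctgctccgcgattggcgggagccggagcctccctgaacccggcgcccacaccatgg
ERG start 2, chr21:38584946-38585195, minus strand: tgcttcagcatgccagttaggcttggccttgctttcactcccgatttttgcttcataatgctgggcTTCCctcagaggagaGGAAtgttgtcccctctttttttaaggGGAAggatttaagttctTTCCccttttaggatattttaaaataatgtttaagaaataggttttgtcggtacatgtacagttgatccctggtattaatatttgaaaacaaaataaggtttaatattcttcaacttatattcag
ETS2 start 1, chr21:38804933-38805182, plus strand: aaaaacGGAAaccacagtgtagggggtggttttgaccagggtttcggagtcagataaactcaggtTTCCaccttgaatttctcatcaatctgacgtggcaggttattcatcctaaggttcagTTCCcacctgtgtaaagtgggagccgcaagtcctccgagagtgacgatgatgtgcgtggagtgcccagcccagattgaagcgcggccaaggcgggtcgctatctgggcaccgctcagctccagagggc

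The GC-rich sequence before ERG start 1 (77.2% G or C) held 1 GGAA, the AT-rich sequence before ERG start 2 (36.4%) held 4, and the sequence before ETS2 start 1 (54.4%) held 3. Such a core is common, being present in 92.7% of the 35116 promoter entries of this length. The longer letters CCGGAA, typical of GABPα sites, were searched on both strands in the 4 ERG and 2 ETS2 entries and were found in none, against 14.5% of all entries. AGGAAG, typical of ERG sites and present in 28.7% of all entries, was found in ERG starts 3 and 4, whose sequences overlap and hold the same site, and in ETS2 start 2. GGAA is part of both CCGGAA and AGGAAG. The peaks are in hg18 and these starts in another build, so the position of a peak relative to a gene start, an exon or an intron was not determined.

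Peaks that overlapped between samples by at least 1 bp were merged into 41 regions, 8 in the TMPRSS2 window, 24 in the ERG window and 9 in the ETS2 window, numbered here along the chromosome. Of these, 21 of 41 were called in 1 sample, a smaller share than the 62.9% of all regions of the series. None was called in 5 or more samples, and the most was 4. The MACS score equals log10(p) multiplied by −10, so 50 was the lowest score listed, and a score grows with sequencing depth as well as with enrichment. No file gives the depth, so scores of different samples were set side by side and not tested.

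**Figure D1:**
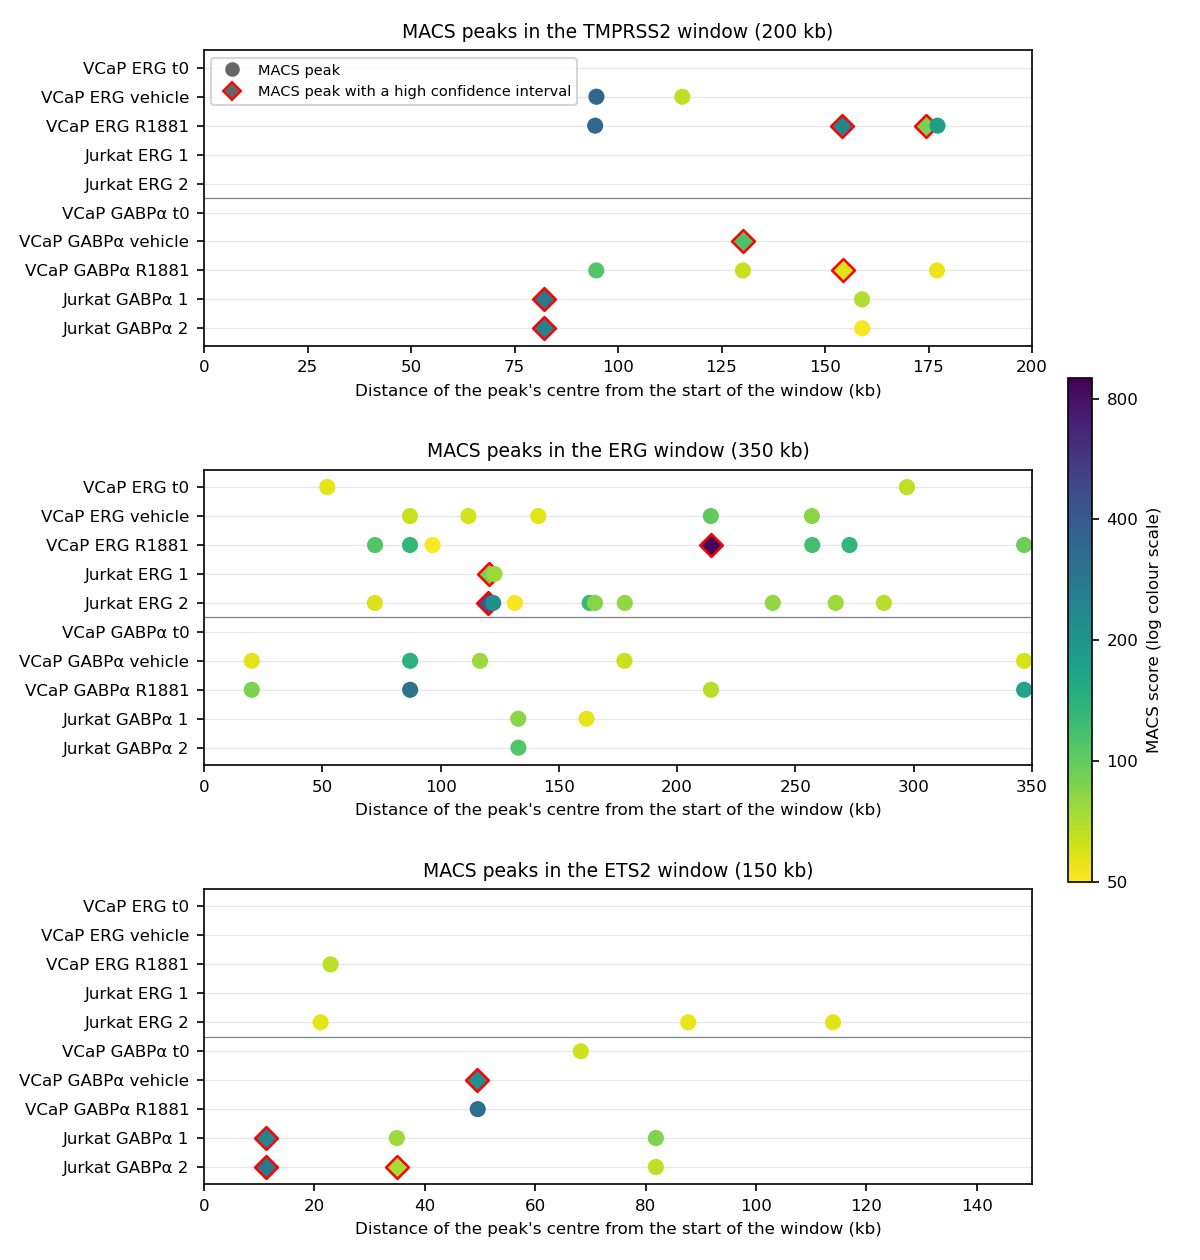
MACS peaks of the 10 samples (rows) in the 3 windows, placed by the distance of their centre from the start of the window in kb. Colour gives the MACS score on a log scale and red diamonds mark peaks with a high confidence interval; the peak with the darkest colour, VCaP ERG with R1881 in the ERG window, scored 868.41.

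The TMPRSS2 window held peaks of both factors in VCaP cells with vehicle and with R1881, and of GABPα alone in Jurkat cells. Peaks of the factors overlapped each other there with R1881 only. The ERG ChIP gave 0 peaks there at t0, 2 with vehicle and 4 with R1881 in VCaP cells, and 0 in both Jurkat samples. These VCaP samples had 6963, 19504 and 23947 MACS peaks in all, and the shares with vehicle and R1881 were 0.01025% and 0.0167%. For GABPα the counts were 0, 1 and 4 in VCaP cells, of 9531, 14183 and 15013 MACS peaks in all, and 2 in each Jurkat sample. The t0 samples, like Jurkat ERG, had no call in this window. For each factor the t0 sample had the fewest MACS peaks of the VCaP samples, and VCaP ERG at t0 had 2 high confidence peaks over the genome. A missing call at t0, here or in the regions below, therefore does not show that the factor was absent.

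Region TMPRSS2-2 (chr21:41793750-41795225) had the highest score of the window, with ERG at 352.23 with vehicle and 343.73 with R1881, and GABPα at 109.49 with R1881. The ERG score was alike in the vehicle and R1881 samples, with a ratio of 0.98. Among the ERG peaks of each sample, 2.57% of those with vehicle and 6.48% of those with R1881 scored as high or higher. None of these 3 peaks was high confidence.

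TMPRSS2-5 (chr21:41853777-41854685) was called with R1881 only, for ERG at 243.53 and for GABPα at 57.41. It is the sole region of the 3 windows with a high confidence interval for both factors, and these intervals overlapped each other, from 41854203 to 41854276 for ERG and from 41854224 to 41854335 for GABPα. The ERG peak was within the top 11.0% of its sample, whereas 85.8% of GABPα peaks scored at least as high as the GABPα peak. TMPRSS2-8 (chr21:41876674-41877480) had the same pair of calls, ERG 177.54 and GABPα 55.29 with R1881, without a high confidence interval. Its neighbour TMPRSS2-7 (chr21:41873487-41875272) had an ERG peak with R1881 only, at 89.16, with a high confidence interval from 41874166 to 41874281.

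GABPα without ERG was seen at TMPRSS2-4 (chr21:41829551-41830865), at 113.76 with vehicle, where it was high confidence, and at 63.73 with R1881, where it was not. This was the one region of the window called for GABPα with both treatments, and its score was lower with R1881 (ratio 0.56). The remaining VCaP region, TMPRSS2-3, was an ERG peak with vehicle at 66.51.

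Jurkat GABPα peaks lay at other places in the TMPRSS2 window than those of VCaP GABPα. At TMPRSS2-1 (chr21:41781714-41782350) the Jurkat samples scored 287.30 and 255.45, both with high confidence intervals, and no VCaP sample had a peak. TMPRSS2-6 (chr21:41858643-41859261) was a weaker site of the same kind, at 70.20 and 51.62. Both Jurkat samples called both regions.

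**Figure D2:**
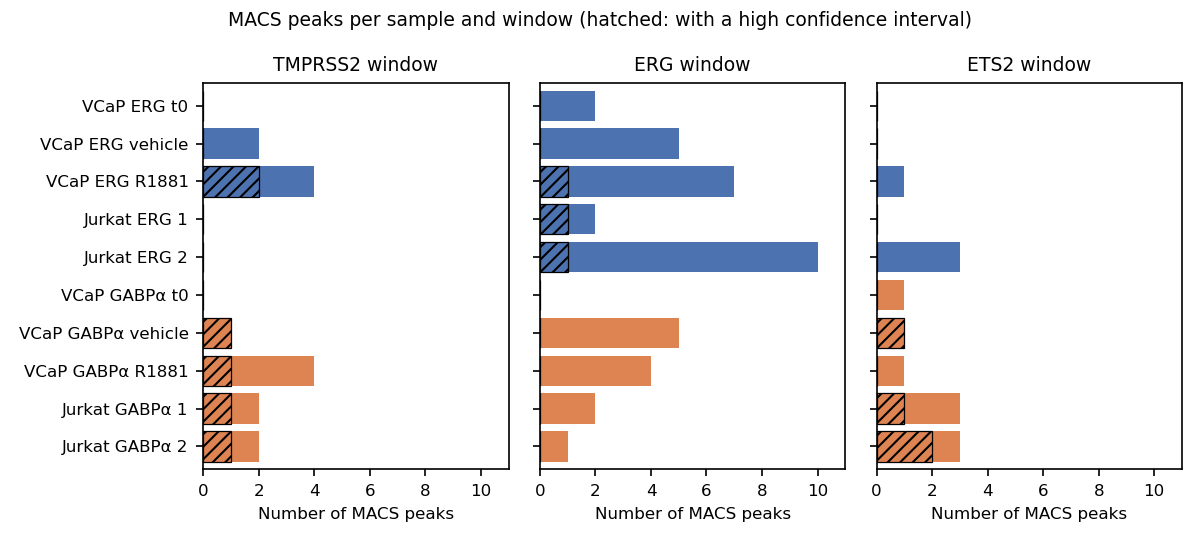
Number of MACS peaks per sample (rows) in each window, blue for ERG and orange for GABPα, with hatching for the peaks that hold a high confidence interval. The longest bar is Jurkat ERG 2 in the ERG window, with 10 peaks against 2 in Jurkat ERG 1.

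In the ERG window the ERG ChIP gave 2, 5 and 7 peaks in VCaP cells at t0, with vehicle and with R1881, and 2 and 10 in the Jurkat samples. As shares of each sample's MACS peaks, the VCaP values were alike, at 0.0287%, 0.0256% and 0.0292%. The Jurkat shares were 0.0274% and 0.0657%. GABPα gave 0, 5 and 4 in VCaP cells and 2 and 1 in Jurkat cells. Of its 24 regions, 14 were called in 1 sample, near the 62.9% of all regions. High confidence was limited to 3 peaks, all of ERG, in regions ERG-8 and ERG-17.

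Region ERG-17 (chr21:38863666-38864791) carried the highest score of the 3 windows, with ERG at 101.21 with vehicle and 868.41 with R1881, and GABPα at 68.10 with R1881. The R1881 peak was among the top 0.718% of its sample and had a high confidence interval from 38864177 to 38864475. Its score with R1881 was 8.58 times that with vehicle, a ratio reached or passed by 0.875% of the 7660 regions with an ERG peak in both samples. Neither t0 sample nor any Jurkat sample had a peak here.

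ERG-4 (chr21:38736819-38737463) was the region called in 4 samples, all from VCaP cells with vehicle or R1881. ERG scored 64.03 with vehicle and 131.65 with R1881, and GABPα 142.01 and 295.90. Both scores were about doubled with R1881, with ratios of 2.06 for ERG and 2.08 for GABPα. It was the one region where the factors overlapped with vehicle as well as with R1881, and none of its peaks was high confidence. At ERG-24 (chr21:38996372-38996982), near the end of the window, GABPα scored 59.81 with vehicle and 168.54 with R1881, and ERG 94.38 with R1881.

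Jurkat ERG was strongest at ERG-8 (chr21:38769076-38770809), at 91.27 and 404.00 in replicates 1 and 2, with high confidence in both. The adjoining ERG-9 (chr21:38770820-38773639) scored 76.89 and 213.09, without high confidence. These were the only regions of the windows with a peak in both Jurkat ERG samples, and no VCaP sample had a MACS peak in either. The other 11 regions with a Jurkat ERG peak were called in replicate 2 alone, 8 in the ERG window and 3 in the ETS2 window, with scores between 51.35 and 128.42. Jurkat GABPα was called in both replicates at ERG-11 (chr21:38782532-38783212), at 83.75 and 109.65.

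The ETS2 window, the shortest at 150 kb, had the fewest ERG calls in all. This order did not hold for Jurkat ERG 2, with 3 peaks here and 0 in the TMPRSS2 window. The VCaP ERG samples gave 0, 0 and 1 peaks and the Jurkat ERG samples 0 and 3, all between 54.96 and 66.67 and none high confidence. Each VCaP GABPα sample had 1 peak and each Jurkat GABPα sample had 3. No region of this window was called for both factors.

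At ETS2-5 (chr21:39098785-39100003) VCaP GABPα scored 214.16 with vehicle and 320.28 with R1881. The vehicle peak was high confidence (39099545 to 39099662) and the R1881 peak was not, although its score was higher. The t0 sample had no peak there and its single GABPα call, ETS2-6, scored 62.10.

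ETS2-1 (chr21:39060450-39061938) was the leading Jurkat site of this window, with GABPα at 243.40 and 278.56 and high confidence in both replicates, at 39060748 to 39060918 and 39060730 to 39060912. ETS2-4 (chr21:39084622-39085301) scored 76.76 and 73.77, with high confidence in replicate 2, and ETS2-7 (chr21:39131534-39132165) scored 87.03 and 66.94. All 3 were called in both Jurkat GABPα samples, and no VCaP sample had a peak in any of them.

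**Figure D3:**
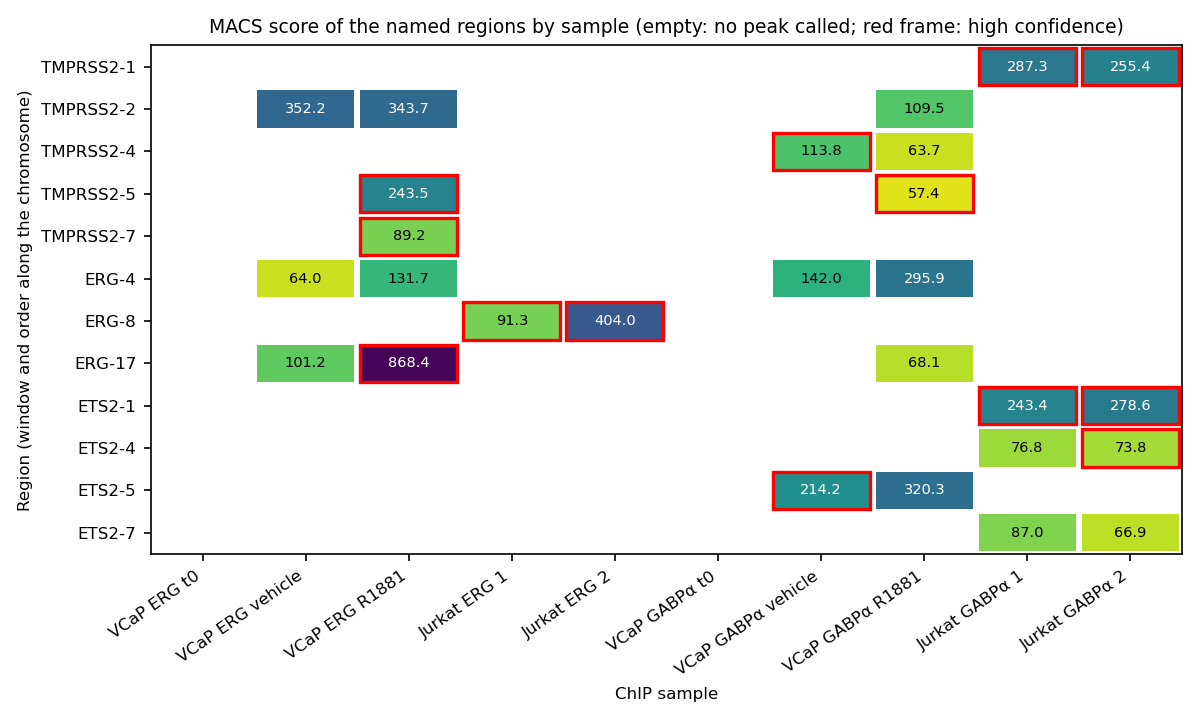
MACS score in each of the 10 samples (columns) of the 12 regions (rows) that had a high confidence interval or one of the 3 highest scores of their window; colour follows a log scale, empty cells had no peak called and red frames mark high confidence. VCaP and Jurkat peaks fall in different rows, and both t0 columns are empty. The t0 samples had the fewest MACS peaks of the VCaP samples of each factor.

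Androgen treatment was compared through the regions called with vehicle and with R1881, 1 VCaP sample each. For ERG, 8 of the 12 regions with an R1881 peak had no vehicle peak, while this was so for 67.8% of all ERG regions with R1881. In the other direction, 3 of the 7 with a vehicle peak had no R1881 peak (60.1% of all). Both shares were near or below those of the genome as a whole. Of the 4 called with both treatments, ERG-17 and ERG-4 scored at least 2 times higher with R1881, as did 22.3% of all such regions. The median ratio of the 4 was 1.74, against 1.16 over all 7660.

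For GABPα, 4 of the 9 regions with an R1881 peak had no vehicle peak (34.1% of all GABPα regions with R1881), and 2 of the 7 with a vehicle peak had no R1881 peak (30.2% of all). In the TMPRSS2 window 3 of the 4 R1881 regions had no vehicle peak, and all 3 coincided with an ERG peak. Their GABPα scores with R1881 were 109.49 (TMPRSS2-2), 57.41 (TMPRSS2-5) and 55.29 (TMPRSS2-8), the last 2 near the lowest score listed. Of that sample's peaks, 54.2%, 85.8% and 89.5% scored at least as high. Whether GABPα was absent there with vehicle was not tested. The share of all GABPα regions without a vehicle peak that coincided with an ERG peak was not computed. Of the 5 GABPα regions called with both treatments, ERG-4 and ERG-24 scored at least 2 times higher with R1881, as did 4.97% of all such regions. The median ratio was 1.54 for these 5 and 1.00 over all 9843. With 1 sample per treatment the spread between replicates of these scores and calls is unknown. The VCaP input libraries of each factor are labelled t0 or vehicle, and none is labelled R1881.

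**Figure D4:**
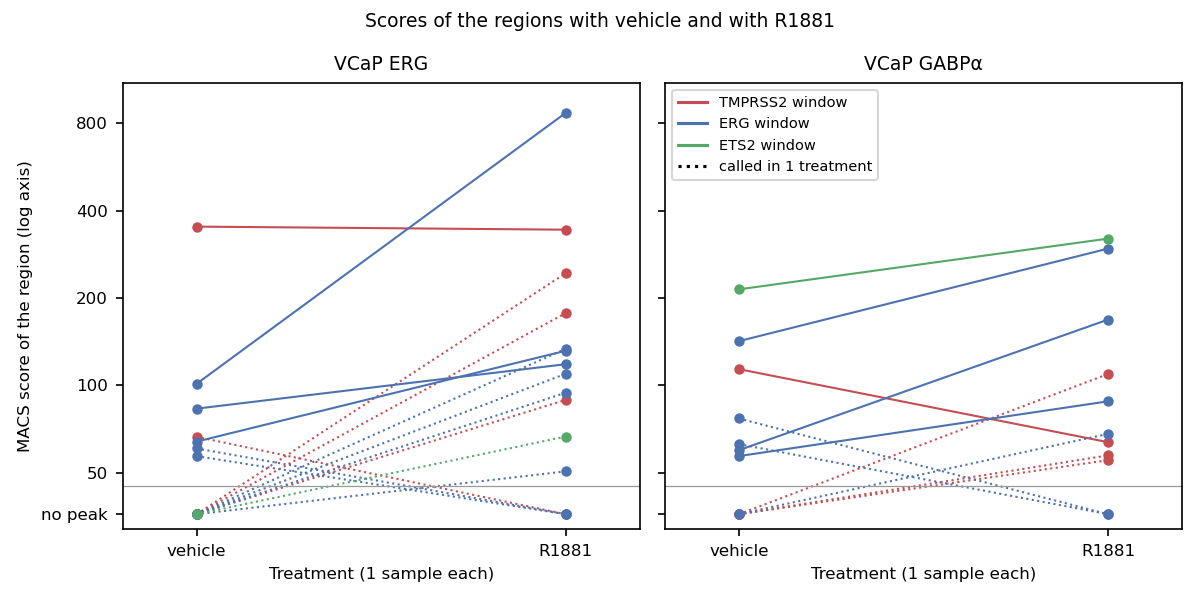
MACS score (log axis) with vehicle and with R1881, 1 VCaP sample each, for every region of the 3 windows called in either, for ERG (left) and GABPα (right). Solid lines join regions called with both treatments and dotted lines those called with 1 of them, drawn from the level marked "no peak"; the steepest solid line is ERG at ERG-17, from 101.21 to 868.41.

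The factors were compared within each condition by the overlap of their MACS peaks. With R1881, 6 of the 12 ERG peaks in the windows overlapped a GABPα peak, against 16.3% of all ERG peaks with R1881. The same 6 regions took up 6 of the 9 GABPα peaks, against 25.8% of all GABPα peaks with R1881. They were TMPRSS2-2, TMPRSS2-5, TMPRSS2-8, ERG-4, ERG-17 and ERG-24. With scores of at least 100 for both factors TMPRSS2-2 and ERG-4 were left, and with high confidence intervals TMPRSS2-5 alone. With vehicle the overlap was 1 of 7 ERG peaks (13.4% of all) and 1 of 7 GABPα peaks (17.8% of all), and at t0 neither the 2 ERG peaks nor the GABPα peak overlapped. Over the whole series, 11.0% of regions held overlapping peaks of both factors in 1 condition, and here 6 of 41 did.

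In Jurkat cells no ERG MACS peak of the windows overlapped a GABPα MACS peak of the same replicate number. Intervals called for Jurkat GABPα 2 by SWEMBL and not by MACS did lie within ERG-8 and are described below. This covered 2 ERG peaks of replicate 1 and 13 of replicate 2, while 33.8% and 27.8% of all ERG peaks of these samples overlapped. From the side of GABPα, 0 of 7 and 0 of 6 peaks overlapped, against 10.4% and 19.1% of all.

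Replicates in Jurkat cells shared most of their GABPα calls, with 6 of 7 peaks of replicate 1 found in replicate 2 (72.7% of all) and 6 of 6 of replicate 2 found in replicate 1 (71.0% of all). ERG calls were shared less evenly, with 2 of 2 of replicate 1 found in replicate 2 (49.4% of all) and 2 of 13 of replicate 2 found in replicate 1 (21.2% of all). Jurkat ERG 2 had 15229 MACS peaks in all and Jurkat ERG 1 had 7288. The Jurkat input library of each factor is labelled for replicate 1, and none is labelled for replicate 2.

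The cell lines shared few regions, in these windows as over the whole series. Of 23 regions with a VCaP peak, 2 also held a Jurkat peak (11.2% of all), and these were 2 of the 20 with a Jurkat peak (16.1% of all). One was ERG-3 (chr21:38722019-38722562), with VCaP ERG with R1881 at 109.69 and Jurkat ERG 2 at 59.07. In the other, ERG-16 (chr21:38827404-38828077), VCaP GABPα with vehicle scored 62.77 and Jurkat ERG 2 scored 80.63. For a single factor, 1 of 17 VCaP ERG regions held a Jurkat ERG peak (3.15% of all), and 0 of 12 VCaP GABPα regions held a Jurkat GABPα peak (20.3% of all).

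High confidence peaks were read by factor, since this share differed widely between the ChIPs over the whole series. For ERG, 5 of 36 MACS peaks in the windows held a high confidence interval, against 7.46% of all ERG peaks. In VCaP ERG with R1881 it was 3 of 12, against 8.54% of that sample. For GABPα it was 8 of 30, against 35.2% of all GABPα peaks. Over both factors the share was 19.7% (13 of 66, Wilson 95% interval 11.9% to 30.8%), and over the series 22.2%; the interval covers counting error only.

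Set against the whole of chromosome 21, peaks stood closer together in some windows and samples than in others. VCaP GABPα with R1881 had 2.000 peaks per 100 kb in the TMPRSS2 window and 0.882 between the first and last peak of the chromosome, while vehicle had 0.50 against 0.839 and t0 had 0.000 against 0.895. VCaP ERG with R1881 also had 2.000 in that window, near its 2.169 over the chromosome. Against the stretch between the ETS2 and TMPRSS2 windows (39200001 to 41699999), both R1881 samples had more peaks per 100 kb in the TMPRSS2 window. That stretch held 24 ERG peaks and 4 GABPα peaks with R1881. In the ERG window Jurkat ERG 2 had 2.857 against 0.683, and Jurkat ERG 1 had 0.571 against 0.449. In the ETS2 window both Jurkat GABPα samples had 2.000, against 0.645 and 0.672. Jurkat ERG 2 had the same 2.000 there, against 0.683, and Jurkat ERG 1 had 0.000, against 0.449. The copy number of these stretches in either line was not measured here.

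The share of a sample's MACS peaks that lay in each window was compared between factors and between lines by exact two-sided permutation tests over samples, and none of the 6 tests passed 0.05. The p-values are unadjusted. Between factors, labels were exchanged within each VCaP treatment and within Jurkat, and the 48 arrangements allow a smallest p of 0.042. In the TMPRSS2 window the ERG samples had 0.0054% ± 0.0077 (SD, n = 5) and the GABPα samples 0.0104% ± 0.0098 (n = 5, exact p = 0.167). The ERG window gave 0.0353% ± 0.0170 and 0.0151% ± 0.0151 (exact p = 0.125), and the ETS2 window 0.0048% ± 0.0085 and 0.0103% ± 0.0035 (exact p = 0.208). Without Jurkat replicate 2 the ERG minus GABPα difference in the ERG window was 0.0100, in place of 0.0202, and without replicate 1 that in the ETS2 window was −0.0035, in place of −0.0056.

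Between lines, labels were exchanged within each factor, and 100 arrangements allow a smallest p of 0.010. VCaP samples (n = 6) had 0.0101% ± 0.0103 of their peaks in the TMPRSS2 window and Jurkat samples (n = 4) 0.0046% ± 0.0053 (exact permutation p = 0.410). In the ERG window the shares were 0.0242% ± 0.0123 and 0.0267% ± 0.0278 (exact permutation p = 0.820), with the sign reversed when Jurkat replicate 2 was left out (difference VCaP minus Jurkat −0.0025 with it and 0.0059 without it). In the ETS2 window they were 0.0047% ± 0.0042 and 0.0118% ± 0.0084 (exact permutation p = 0.060). This last difference of −0.0071 was −0.0119 without Jurkat replicate 1, −0.0022 without replicate 2 and −0.0004 with scores of at least 100. These groups mix treatments, and the difference between factors in the TMPRSS2 window also changed sign with high confidence peaks (0.0050) and with scores of at least 100 (0.0028) in place of −0.0050.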

How the data were processed

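The authors aligned reads to hg18 with BWA 0.5.5 and called peaks per sample against input with MACS and with SWEMBL. The deposited MACS score column is −10 times the log10 p-value (lowest 50.0, a p of 1e-05). In 7 samples the high confidence intervals are SWEMBL intervals with the MACS score, and in 3, all of ERG, they carry no score. In those 3 most or all are MACS intervals instead. These were 2 of 2 in VCaP ERG t0, 743 of 743 in VCaP ERG vehicle and 1069 of 1103 in Jurkat ERG 1. The 6 inputs have no peak file here, and read depth is unknown; MACS calls ranged from 6963 to 23947 peaks per sample, so counts and scores were read against each sample's own totals.

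A peak was placed by its start, and peaks overlapping by 1 bp were merged into regions, in Python 3.11.15. The background of each count is the same count over all peaks or regions. Shares of peaks were tested by exact permutation over samples, exchanging factors within each VCaP treatment and within Jurkat, and lines within each factor, and the code was tested on simulated data. Named regions are those with a high confidence interval or among the 3 highest scores of a window; others are named where a count of a few members is given. The windows, members and rules were chosen with earlier results of these data known. High confidence or SWEMBL intervals in place of MACS peaks or high confidence files, stricter scores, other overlap rules and Jurkat replicates left out were alternatives.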

Additional observations from a re-analysis of the deposited data

Results flagged for a closer look

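SWEMBL called 3 intervals in the windows where MACS called no peak in the same sample, so they enter no comparison above. In VCaP ERG with R1881, an interval of 173 bp starts at 41862608 of the TMPRSS2 window. In Jurkat GABPα 2, intervals of 89 bp and 104 bp start at 38769431 and 38770307 of the ERG window, both within region ERG-8, where both Jurkat ERG samples had high confidence peaks. The interval of 104 bp, ending at 38770410, overlaps the high confidence interval of Jurkat ERG 2 from 38770324 to 38770451. The SWEMBL files give coordinates without a score, so the strength of these 3 intervals is unknown.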

How the results depend on the processing

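Of 53 alternative values of 15 results, 40 kept their sign and side of the threshold or, for counts, stayed within 1.5 times, 10 counts moved by over 1.5 times and 3 differences changed sign. With scores of at least 100 the windows held 8 (TMPRSS2), 13 (ERG) and 4 (ETS2) MACS peaks, 1 region with both factors in each of the TMPRSS2 and ERG windows, and 2 GABPα regions called with R1881 and not with vehicle. With high confidence peaks the regions with both factors were 1 and 0, and those called with R1881 and not with vehicle were 3 for ERG and 1 for GABPα. The share of all regions with such calls was not computed. Over the genome VCaP ERG had 743 high confidence peaks with vehicle and 2229 with R1881, and VCaP GABPα had 6365 and 5987. The ERG minus GABPα difference in the TMPRSS2 window became 0.0050 with high confidence peaks and 0.0028 with scores of at least 100. Leaving out a Jurkat replicate gave VCaP minus Jurkat differences of −0.0108 to 0.0059 in the ERG window, the sign changing without replicate 2; in the ETS2 window they were −0.0119 to −0.0022, and with any overlap with the window in place of the start inside it that test gave an exact p of 0.050. With high confidence peaks the VCaP minus Jurkat difference in the ERG window was −0.0291. The causes were not tested.

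With a replicate block that kept same-numbered Jurkat samples paired, the ERG minus GABPα differences stayed −0.0050, 0.0202 and −0.0056 with exact p of 0.250, 0.188 and 0.188 for the TMPRSS2, ERG and ETS2 windows (32 arrangements). The replicate differences in log2 score of the factors correlated with r = 0.035 across 1580 regions, which are not independent replicates. Whether same-numbered samples came from the same culture cannot be settled by this value, since it compares scores of different ChIPs. Unknown read depth limits the comparisons between samples, the single VCaP samples those within VCaP, and the ERG antibody those that use ERG.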

Other observations

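A Jurkat GABPα 2 peak with a MACS score of 96.03 starts at 39049394, just before the ETS2 window, and reaches 77 bp into it, so it was not counted. Beyond the ETS2 window, VCaP ERG peaks starting at 39244211 with vehicle and 39244242 with R1881 scored 387.04 and 423.41, above every ERG score within that window. Beyond the TMPRSS2 window, a GABPα peak with R1881 starting at 42059927 scored 561.90 and was high confidence, above every GABPα score in the 3 windows.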
